A study of Homo sapiens with 9 samples.

Results

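Nuclear pseudogenes of mitochondrial genes were examined in U937 cells, a human immature monoblast cell line. They were taken by name, as the MTND, MTCO, MTATP, MTCYB and MTRNR names that end in P and a number. FPKM, the unit of the files, corrects a read count for exon length and for the size of the library. A name was kept when its FPKM was above 0 in at least 3 of the 9 libraries. Of 60623 genes listed, 394 had such a name, 331 of these were at 0 in every library, and 29 met the condition. The 29 members were thus chosen by measured values, namely their FPKM, and their detection is not a finding. Of the 34 names above 0 in only 1 or 2 libraries, the one with the highest mean among those in exactly 2 libraries was MTND3P23, with 4 reads in all. Just inside the limit, among the 8 members above 0 in exactly 3 libraries, MTND6P21 had the highest mean, with 20 reads, and MTCYBP3 the lowest, with 4 reads.

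The stable U937 lines sequenced were an empty vector line (U937-CTR, labelled WT), a line with inducible AML1-ETO (U937-AE) and a line with inducible ETO2-GLIS2 (U937-EG), each without doxycycline and after 12 and 48 h at 5 μg/ml. The fusion lines are single clones carrying retroviral, HA-tagged and doxycycline-responsive constructs, so the clone and the fusion protein cannot be told apart. Each of the 9 conditions had 1 library, so no difference had a replicate check, no test was made, and every interval is a 95% interval of counting error only. The libraries held 15136405 to 18443635 reads on genes. RUNX1T1, the ETO part of AML1-ETO, went from 0.512 to 22.2 and 28.7 FPKM in U937-AE and was at most 0.0240 FPKM elsewhere. GLIS2 went from 2.39, the lowest of the 9 libraries, to 6.79 and 8.85 FPKM in U937-EG, and was between 2.47 and 5.60 FPKM in the other lines. Of 9 monocytic markers, 8 were above 1 FPKM in every library, with MPO below. Of 8 markers of other cell types, 5 were at 0 throughout and 1 was above 1 FPKM in every library.

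Fragments of mitochondrial DNA have been inserted into the nuclear chromosomes again and again during evolution, and the copies are annotated as pseudogenes. The mitochondrial genome encodes subunits of the respiratory chain, namely the ND subunits of NADH dehydrogenase (complex I), cytochrome b (CYB) of complex III, the CO subunits of cytochrome c oxidase (complex IV) and the ATP6 and ATP8 subunits of ATP synthase, besides its own ribosomal and transfer RNAs. It uses a genetic code that differs from the nuclear one, so nuclear copies are not expected to make these proteins. Because young copies differ from the mitochondrial gene at few bases, a read from one can align to the other, and the comparison of each group with its mitochondrial parent addresses how far reads may be shared.

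All 29 members had a transcript in GENCODE release 44 on GRCh37, matched by gene identifier, and in all 29 the mitochondrial transcript that aligned best was the one in the name. The alignments fell into 3 ranges. The 6 members of a block on chromosome 1 (chr1:629062-634922, GRCh38, plus strand) were 98.2% to 99.1% identical to their parents. The 4 members of a block in PCBD2 on chromosome 5 (chr5:134923303-134928036) were 92.4% to 95.8% identical, and the other 19 were 73.0% to 80.7% identical. The following stretches, which are the gap-free stretches of at most 120 bases with the most differences, show how close MTND2P28 and MTATP6P1, the copies with most reads, are to the parents, beside a copy from the same block with almost no reads (MTCO2P12) and a more diverged copy on chromosome 21 (MTCYBP21). Sequences are written 5′ to 3′ in the sense of the gene, and capitals mark the bases that differ between a member and its parent.
MTND2P28, positions 370 to 489 of its transcript: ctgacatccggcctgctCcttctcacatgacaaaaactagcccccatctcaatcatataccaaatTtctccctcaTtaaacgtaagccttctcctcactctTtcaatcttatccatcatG
MT-ND2, positions 370 to 489: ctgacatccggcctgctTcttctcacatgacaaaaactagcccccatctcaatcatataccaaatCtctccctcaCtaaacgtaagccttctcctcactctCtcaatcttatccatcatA
MTATP6P1, positions 73 to 192 of its transcript: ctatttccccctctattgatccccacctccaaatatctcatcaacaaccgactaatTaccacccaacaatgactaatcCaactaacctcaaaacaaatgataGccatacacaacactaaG
MT-ATP6, positions 73 to 192: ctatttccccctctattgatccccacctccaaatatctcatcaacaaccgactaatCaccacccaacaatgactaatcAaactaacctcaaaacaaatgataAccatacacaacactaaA
MTCO2P12, positions 208 to 327 of its transcript: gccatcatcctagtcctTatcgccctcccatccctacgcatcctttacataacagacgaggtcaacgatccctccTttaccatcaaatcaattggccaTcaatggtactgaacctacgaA
MT-CO2, positions 208 to 327: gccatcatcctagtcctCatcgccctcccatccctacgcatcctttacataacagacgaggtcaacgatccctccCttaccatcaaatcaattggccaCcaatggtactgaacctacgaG
MTCYBP21, positions 131 to 213 of its transcript: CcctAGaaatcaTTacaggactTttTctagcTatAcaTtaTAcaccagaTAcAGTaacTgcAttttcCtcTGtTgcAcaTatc
MT-CYB, positions 125 to 207: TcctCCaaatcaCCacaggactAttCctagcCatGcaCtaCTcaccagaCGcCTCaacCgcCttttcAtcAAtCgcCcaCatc

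MTND2P28 differed from MT-ND2 at 17 of 1042 aligned bases, MTATP6P1 from MT-ATP6 at 10 of 681, MTCO1P12 from MT-CO1 at 20 of 1542, and MTCO2P12 from MT-CO2 at 12 of 682. All 17 differences of MTND2P28 were exchanges within the purines or within the pyrimidines, as were 8 of 10 in MTATP6P1 and 18 of 20 in MTCO1P12. MTCYBP21 differed from MT-CYB at 284 of 1059 aligned bases, 147 of them exchanges of that kind. The longest stretch without a difference was 266 bases in MTND2P28, 141 bases in MTATP6P1 and 245 bases in MTCO1P12, against 11 to 25 bases in the 19 members of lowest identity. Of all 100-base windows in the transcript, 26% in MTND2P28, 11.9% in MTATP6P1 and 27.8% in MTCO1P12 occurred letter for letter in a mitochondrial transcript of the reference. Of the other 26 members, 23 had no such window. The remaining 3 lie in the same chromosome 1 block, and their shares were 34.4% in MTND1P23, 6.70% in MTCO3P12 and 2.40% in MTCO2P12. The shares depended on the window length. With 50-base windows they were 43.5% in MTND2P28, 46.7% in MTATP6P1 and 49.4% in MTCO1P12. With 150-base windows they were 15.6%, 0.0% and 14.5% in the same members. The mitochondrial sequence of U937 itself was not analysed here.

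Reads were very unevenly spread over the members. The FPKM values of all 29 corresponded to whole reads, within 0.0082 of a read. Of 38989 reads, 38380 belonged to MTND2P28, MTATP6P1 and MTCO1P12, between 88.0% and 99.3% of the member reads of each library. The other 26 members had 609 reads in all, 4 to 78 each with a median of 13, and mean FPKM values between 0.0251 and 0.399. High identity to the parent went with many reads in some members and not in others. MTCO2P12, MTND1P23 and MTCO3P12 lie in the same block as the leading members, at identities of 98.2%, 99.1% and 98.2%, and had 4, 9 and 21 reads. Outside this block no member passed 78 reads, which was the total of MTND4P9 (chr4:25718082-25719745), 75.3% identical to MT-ND4.

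**Figure D1:**
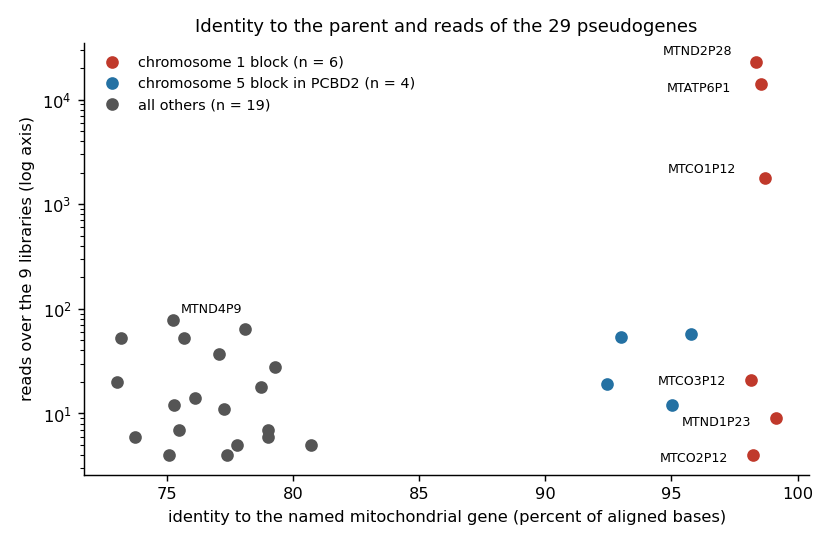
Identity of each of the 29 pseudogenes to its mitochondrial parent (x axis, percent of aligned bases) against its reads summed over the 9 libraries (y axis, log scale), with 1 point per pseudogene, coloured by block. MTND2P28, MTATP6P1 and MTCO1P12 stand above all others with 22662, 13944 and 1774 reads, whereas MTCO3P12, MTND1P23 and MTCO2P12 of the same block lie between 4 and 21 reads at a similar identity.

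The 3 leading members were the only ones with a mean FPKM of at least 1 in the libraries compared, so a change past 2-fold could be called in 3 of the 29 members. MTND2P28 (ENSG00000225630, chr1:629640-630686), a copy of the gene for a complex I subunit, had 201, 161 and 167 FPKM at 0, 12 and 48 h in U937-CTR. It had 199, 227 and 37.9 FPKM in U937-AE and 156, 118 and 65.9 FPKM in U937-EG. MTATP6P1 (ENSG00000248527, chr1:633696-634376), a copy of the gene for an ATP synthase subunit, had 157, 108 and 172 FPKM in U937-CTR. Its values were 131, 141 and 31.1 FPKM in U937-AE and 197, 195 and 103 FPKM in U937-EG. MTCO1P12 (ENSG00000237973, chr1:631074-632616), a copy of the gene for the catalytic subunit of complex IV, had 9.52, 4.75 and 6.06 FPKM in U937-CTR, 8.44, 3.57 and 1.53 FPKM in U937-AE and 20.7, 7.65 and 5.67 FPKM in U937-EG. For each of the 3 members, the library of U937-AE at 48 h had the lowest value of all 9.

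At 48 h against 0 h, the log2 change of MTND2P28, on FPKM plus 0.01, was -2.39 (95% interval -2.52 to -2.27) in U937-AE. In U937-EG its log2 change was -1.25 (-1.35 to -1.15), and in U937-CTR it was -0.27 (-0.34 to -0.19). The intervals of the 3 lines did not overlap. The log2 change of MTATP6P1 was -2.08 (-2.26 to -1.90) in U937-AE, -0.94 (-1.04 to -0.84) in U937-EG and 0.13 (0.04 to 0.23) in U937-CTR. MTCO1P12 changed by -2.45 (-3.01 to -1.95) in U937-AE, -1.87 (-2.14 to -1.60) in U937-EG and -0.65 (-0.96 to -0.35) in U937-CTR, and here the intervals of the fusion lines overlapped. Thus 3 of the 3 members tested were lower by more than 2-fold in U937-AE, where 11.3% of 12030 genes tested were, and 2 of 3 in U937-EG, where 2.54% of 11696 were. None was lower in U937-CTR (2.99% of 11624 genes). The 3 members lie in the same block on chromosome 1 and are not separate observations. None of the 3 was higher by more than 2-fold in any line, against 17.3%, 10.8% and 8.0% of genes in U937-AE, U937-EG and U937-CTR. With no filter on low values, 12, 9 and 11 of the 29 members were higher in these lines, where 31.7%, 27.5% and 22.6% of genes above 0 in either library were, and 5, 5 and 4 were lower, where 17.8%, 11.9% and 14.3% of genes were. The 29 include members at 0 in both libraries compared, which the gene shares leave out. Counts out of 29 thus understate the member shares. The median log2 change of the 3 members was -2.39, -1.25 and -0.27 in U937-AE, U937-EG and U937-CTR, and that of all genes tested was 0.22, 0.16 and 0.16.

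At 12 h the 3 members did not move together. MTCO1P12 was past 2-fold lower in each line, in U937-CTR with a log2 change of -1.001, and was the only member to be so, where 2.39%, 1.46% and 1.88% of genes tested were lower in U937-AE, U937-EG and U937-CTR. MTND2P28 and MTATP6P1 in U937-AE were instead slightly above their level at 0 h, by 0.19 (0.12 to 0.25) and 0.11 (0.00256 to 0.212) on the log2 scale.

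The mitochondrial parents were also lowest in U937-AE at 48 h. MT-ND2 went from 2882 to 2597 and 2778 FPKM in U937-CTR, from 2652 to 2654 and 622 FPKM in U937-AE, and from 3104 to 2632 and 1476 FPKM in U937-EG. MT-ATP6 went from 1755 to 1670 and 431 FPKM in U937-AE, and MT-CO1 from 11449 to 4149 and 1821 FPKM. At 12 h MT-CO1 was past 2-fold lower in U937-AE (-1.46) but not in U937-CTR (-0.97) or U937-EG (-0.94), where MTCO1P12 was, and at 48 h it was past 2-fold lower in U937-CTR (-1.19), where MTCO1P12 was not. In reads, the copies of MT-CO1 minus MT-CO1 gave -0.04 (-0.37 to 0.29) in U937-CTR at 12 h, so that contrast is one of threshold only. The difference was -0.48 (-0.71 to -0.25) in U937-EG at 12 h and 0.54 (0.24 to 0.85) in U937-CTR at 48 h. Of the 13 protein-coding genes of the mitochondrial genome, 13 were past 2-fold lower at 48 h in U937-AE, 10 in U937-EG and 4 in U937-CTR, with median log2 changes of -2.26, -1.15 and -0.53. The ribosomal RNA genes, for which no pseudogene name was in the files, had other courses. At 0, 12 and 48 h, MT-RNR1 went from 563 to 1375 and 814 FPKM in U937-CTR. It went from 1116 to 1019 and 2724 FPKM in U937-AE and from 733 to 820 and 1428 FPKM in U937-EG. MT-RNR2 went from 2998 to 2730 and 2448 FPKM in U937-CTR. Its values went from 6703 to 3083 and 8294 FPKM in U937-AE and from 7750 to 4549 and 6658 FPKM in U937-EG.

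**Figure D2:**
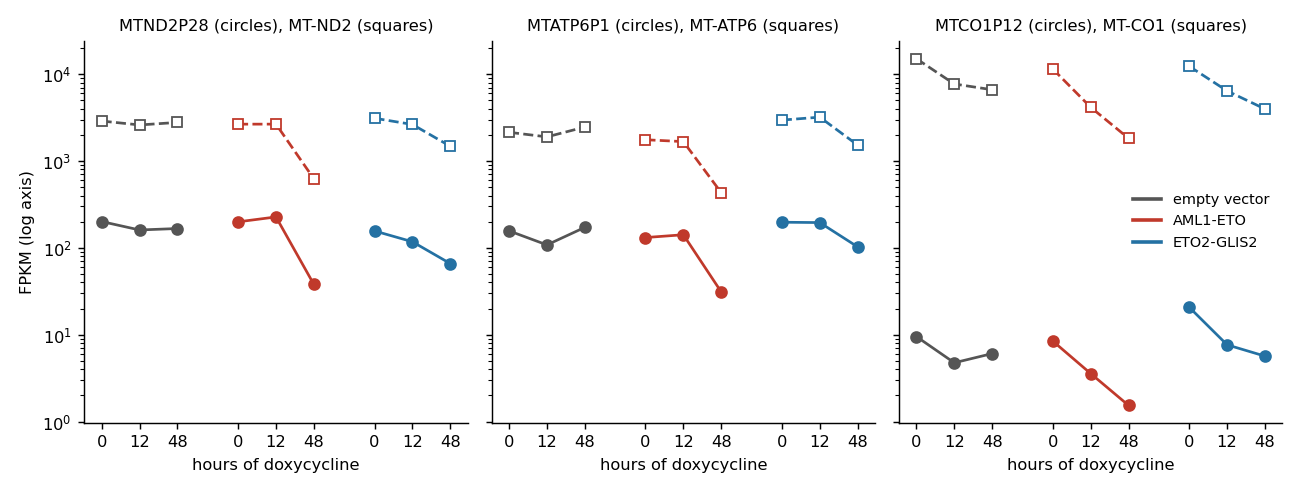
FPKM (y axis, log scale) of the 3 leading pseudogenes (filled circles) and of their mitochondrial parents (open squares) by hours of doxycycline in the empty vector (grey), AML1-ETO (red) and ETO2-GLIS2 (blue) lines, with 1 library per point. Each pseudogene runs below its parent, by a ratio that varied 1.48-fold to 2.72-fold over the libraries, with the lowest point at 48 h in the AML1-ETO line.

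The reads of each pseudogene were also taken as a percent of the reads of its parent. MTATP6P1 had between 5.71% and 8.47% of the reads of MT-ATP6, a 1.48-fold range, whereas its FPKM varied 6.34-fold over the same 9 libraries. In MTND2P28 the share ranged from 4.47% to 8.56% of MT-ND2, 1.91-fold, against 5.98-fold in FPKM. MTCO1P12 had 0.0618% to 0.168% of the reads of MT-CO1, 2.72-fold, against 13.5-fold in FPKM. The shares were thus steadier than the levels in all 3, but in none were they the same in every library within counting error. Whether parent reads fell on the copies was not tested. The shares of MTATP6P1 were 7.33%, 5.71% and 7.0% in U937-CTR, 7.48%, 8.47% and 7.21% in U937-AE, and 6.67%, 6.12% and 6.74% in U937-EG.

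Summed over the 3 libraries of a line, in which libraries with more reads weigh more, MTND2P28 had 6.42% (6.29% to 6.55%) of MT-ND2 reads in U937-CTR, 7.83% (7.67% to 8.0%) in U937-AE and 4.73% (4.62% to 4.85%) in U937-EG. All 3 libraries of U937-EG lay below all 6 others, whereas U937-AE at 48 h, at 6.10%, lay within the range of U937-CTR (6.02% to 6.98%). MTATP6P1 had 6.75% (6.56% to 6.94%) in U937-CTR, 7.87% (7.62% to 8.13%) in U937-AE and 6.45% (6.30% to 6.61%) in U937-EG, and the first and the last of these overlapped. For MTCO1P12 the U937-EG share was the highest, with 0.0693% (0.0634% to 0.0756%) in U937-CTR, 0.0776% (0.0698% to 0.0864%) in U937-AE and 0.151% (0.141% to 0.160%) in U937-EG, and the 3 libraries of U937-EG, at 0.120% to 0.168%, lay above the other 6. The intervals of U937-CTR and U937-AE overlapped for this share.

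**Figure D3:**
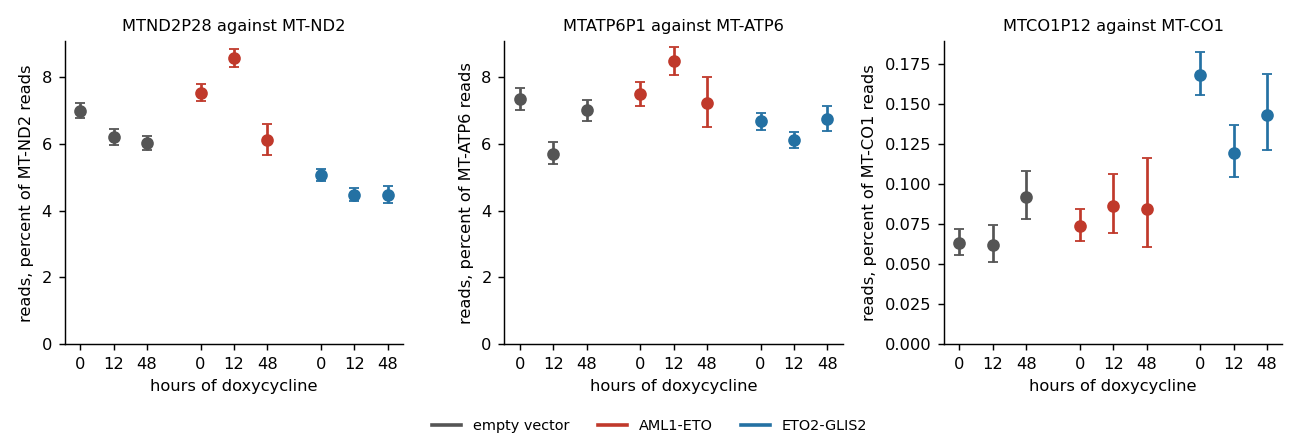
Reads of each leading pseudogene as a percent of the reads of its mitochondrial parent (y axes, from 0) by hours of doxycycline and line, with Wilson 95% intervals of counting error. The ETO2-GLIS2 libraries (blue) are lowest for MTND2P28 (4.47% to 5.05%) and highest for MTCO1P12 (0.120% to 0.168%), and the shares of MTATP6P1 stay between 5.71% and 8.47%.

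Likeness of course was measured by the standard deviation, over the 9 libraries, of the log2 ratio of a member to another gene, among 11530 genes above 0 in every library with a mean FPKM of at least 1. For MTATP6P1 the gene most alike was its own parent MT-ATP6, with a standard deviation of 0.17, followed by MT-ATP8 (0.19) and MT-ND3 (0.21), where the median over all genes was 0.91. MT-ND2 ranked 10 for MTND2P28 (0.32, median 0.95) and MT-CO1 ranked 14 for MTCO1P12 (0.51, median 1.14). Among the 13 protein-coding mitochondrial genes alone, these parents ranked 2 and 3. For 62 pairs of a ribosomal protein pseudogene and its parent, filtered in the same way, the median standard deviation was 0.45, with a range from 0.13 to 1.35. The 9 libraries share 3 lines, and these values are descriptions.

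At 48 h the summed reads of the members below 1 FPKM did not go down with the parents. Together the 26 had 55, 43 and 58 reads in U937-CTR, 78, 108 and 131 reads in U937-AE, and 42, 40 and 54 reads in U937-EG. In reads per library total their log2 change at 48 h was 0.87 (0.46 to 1.30) in U937-AE, where the summed parents changed by -2.35. The difference between both was 3.22 (2.81 to 3.64) in U937-AE, 1.98 (1.37 to 2.60) in U937-EG and 1.0 (0.44 to 1.56) in U937-CTR. At 12 h it was 1.39 (0.96 to 1.83) in U937-AE, and its interval included 0 in U937-CTR (0.52, -0.09 to 1.12) and U937-EG (0.58, -0.08 to 1.24). MTND5P1, MTND6P21 and MTND1P11 met the condition of 3 libraries only through U937-AE. The sums of this line are thus in part set by how members were chosen. The members of lowest identity, under 90%, had 61, 87 and 114 reads in U937-AE, 22, 22 and 37 in U937-EG and 34, 24 and 31 in U937-CTR. Without the 3 members on chromosome 21 described below, an alternative chosen after seeing the data, the other 23 had 57 and 71 reads at 0 and 48 h in U937-AE, a change of 0.44 whose interval included 0 (-0.08 to 0.97), and a difference from the parents of 2.79 (2.27 to 3.32). MTND1P11 is among these 23, with 3 reads at 0 h and 1 at 48 h in U937-AE.

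By parent, a group was set against its parent at 48 h where it had at least 10 reads in both libraries together. In U937-AE this held for 8 groups. The interval of the difference lay above 0 in 5 of them, the copies of MT-CO3, MT-CYB, MT-ND4, MT-ND5 and MT-ND6. It included 0 for the copies of MT-ATP6 (-0.04, -0.22 to 0.13) and MT-CO1 (0.23, -0.31 to 0.74), and lay below 0 for MTND2P28 (-0.30, -0.43 to -0.18). The 6 copies of MT-ND5 had 31 and 50 reads at 0 and 48 h, a log2 change of 0.81 (0.14 to 1.51) against -1.78 in MT-ND5. Among the copies, MTND5P1 and MTND6P21 met the condition of 3 libraries only through U937-AE. The results for the copies of MT-ND5 and MT-ND6 in U937-AE are thus in part set by the choice of members. Copies of MT-CYB, MT-ND5 and MT-ND6 include the chromosome 21 members described below. Without them, an alternative chosen after seeing the data, the other 5 copies of MT-ND5 had 22 and 22 reads, a difference from MT-ND5 of 1.90 (0.98 to 2.82), the copies of MT-CYB had 3 and 3 reads with an interval that included 0 (-0.83 to 4.98), and the copy of MT-ND6 had 1 and 1. The 6 copies of MT-ND4 had 22 and 25 reads, 0.31 (-0.58 to 1.20) against -2.43. In U937-EG the interval lay above 0 for the copies of MT-ND4 (23 and 30 reads, a difference of 2.40, 1.57 to 3.25), below 0 for MTND2P28 (-0.18, -0.28 to -0.08), and included 0 in the other 4 of 6 groups. In U937-CTR it lay above 0 for the copies of MT-CO1, MT-CO3 and MT-ND5, below 0 for MTND2P28 (-0.21, -0.29 to -0.14) and included 0 in 3 of 7 groups. These intervals were not adjusted for the number of groups.

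The 29 members came from few places. With a gap of at most 20000 bp between neighbours, 26 of them formed 8 blocks and 3 stood alone. In 12 members the gene lay within an intron of a protein-coding gene. MTCYBP18, MTND6P4, MTND5P11 and MTND4P12 lie in PCBD2, MTCO3P29 and MTND4P15 in SPTLC1, a subunit of the enzyme that starts sphingolipid synthesis, MTND5P25 and MTND4P23 in the caspase gene CASP10, MTND5P2 and MTCYBP3 in the chaperone gene DNAJC3, and MTND1P11 and MTND4P14 in the kinase gene JAK2. These host genes were expressed in every library, from 0.934 FPKM (PCBD2) to 58.4 FPKM (DNAJC3). The pair in DNAJC3, the host with the highest level, had 11 reads in all, and the 4 members in PCBD2, at 0.934 to 2.73 FPKM, had 143. The pairs in SPTLC1, CASP10 and JAK2 had 42, 17 and 12 reads. In JAK2, 10 of the 12 reads were in U937-AE, where MTND1P11 had its 3 libraries above 0, so this too is set in part by the choice of members. MTCO1P31 on chromosome 5 and MTND5P42 on chromosome 10, which like MTND4P9 stood alone, had 5 and 4 reads. By GENCODE positions on GRCh37, another 12 members overlapped only noncoding genes, and 5 overlapped no gene of the files apart from such pseudogenes. The RefSeq span of HEPFAL, described below, is not part of this count. The kit used does not mark strand, so reads of a member and of a gene on the opposite strand cannot be told apart, and whether the counting used a strand setting is not known beyond its default settings.

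The block in PCBD2, whose members are 92.4% to 95.8% identical to their parents, had the steadiest sum. It had 17, 15 and 22 reads in U937-CTR, 17, 13 and 16 in U937-AE and 17, 12 and 14 in U937-EG. Its log2 change at 48 h was 0.04 (-1.04 to 1.11) in U937-AE. The largest members by reads were MTND4P12 with 58 and MTND5P11 with 54, and they moved in opposite directions in U937-CTR. Between 0 and 48 h MTND4P12 went from 11 to 2 reads there (interval of the log2 change -5.59 to -0.18). MTND5P11 went from 4 to 15 reads (0.34 to 4.04). In U937-AE and U937-EG the intervals of both members at 48 h included 0. On chromosome 2, the block of MTATP6P26, MTCO3P43, MTND3P10, MTND4P26 and MTND5P28 (chr2:120211054-120217212) had 4, 17 and 20 reads in U937-CTR, 17, 22 and 24 in U937-AE and 10, 9 and 14 in U937-EG, and its change at 48 h was past counting error in U937-CTR only (2.40, 0.82 to 4.41). MTND4P9 had 17, 4 and 0 reads in U937-CTR, 12, 15 and 9 in U937-AE and 3, 5 and 13 in U937-EG. It thus went down in the empty vector line and up in U937-EG (log2 change in reads per library total 2.29, 0.43 to 4.74) on few reads. The intervals of single members and blocks were not adjusted for the number of members, blocks and lines. The directions of these single members are therefore only a description.

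One block had nearly all of its reads in 1 line. MTCYBP21, MTND6P21 and MTND5P1 (chr21:44469929-44475073), copies of the genes for cytochrome b and for complex I subunits, had together 2, 1 and 2 reads in U937-CTR, 21, 40 and 60 reads in U937-AE and 0, 0 and 0 reads in U937-EG. Every library of U937-AE thus lay above all 6 libraries of the other lines. MTND5P1 had 9, 16 and 28 reads in U937-AE and none in the other 6 libraries, MTND6P21 had 2, 10 and 8 and none elsewhere, and MTCYBP21 had 10, 14 and 24 in U937-AE and 2, 1 and 2 in U937-CTR. MTND5P1 and MTND6P21 met the condition of 3 libraries only through U937-AE, so their pattern over the lines is in part set by how members were chosen, and the folds of the block are a description. MTCYBP21 was above 0 in all 3 libraries of U937-CTR as well, and alone it was 4.91-fold (1.05 to 46.0) above U937-CTR at 0 h and 12.1-fold (3.01 to 106) at 48 h. Without doxycycline the block was 10.3-fold (2.52 to 90.6) above U937-CTR and at least 7.79-fold above U937-EG, taking 3 reads per library as the floor for a count of 0. At 48 h it was 30.3-fold (8.04 to 256) above U937-CTR and at least 21.5-fold above U937-EG. Within U937-AE the block changed by 1.03 (0.24 to 1.87) at 12 h and 1.64 (0.90 to 2.43) at 48 h on the log2 scale, while MT-CYB changed by -1.95, MT-ND6 by -1.48 and MT-ND5 by -1.78 at 48 h. The identities of these members to their parents were 73.2%, 73.0% and 75.7%, over 1059, 204 and 407 aligned bases.

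Neighbouring genes within 50000 bp were looked at after these values had been seen. LRRC3, which ends 7733 bp before the block, had 0.400, 0.316 and 0.278 FPKM in U937-CTR, 6.21, 5.96 and 5.89 FPKM in U937-AE, and 0.148, 0.153 and 0.230 FPKM in U937-EG. Like the block it was higher in U937-AE at 0 h, but unlike the block it did not go up with time there. The long noncoding RNA HEPFAL, whose RefSeq span overlaps MTND6P21 and MTND5P1, had 9, 15 and 27 reads in U937-AE and 0 in the other 6 libraries, so its reads went up with those of the block. MTND5P1 had nearly the same reads, 9, 16 and 28 in U937-AE. The kit does not mark strand, so HEPFAL is not a separate measure of the block. Whether the reads of both come from the same RNA was not tested. TRPM2, a cation channel gene 27285 bp before the block, went from 23.7 to 17.6 and 7.85 FPKM in U937-AE and from 24.2 to 37.0 and 38.7 FPKM in U937-CTR. RUNX1T1 was at 0.512 FPKM in U937-AE at 0 h. Whether the clone or the fusion construct goes with the reads of this block cannot be told apart in these libraries.

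**Figure D4:**
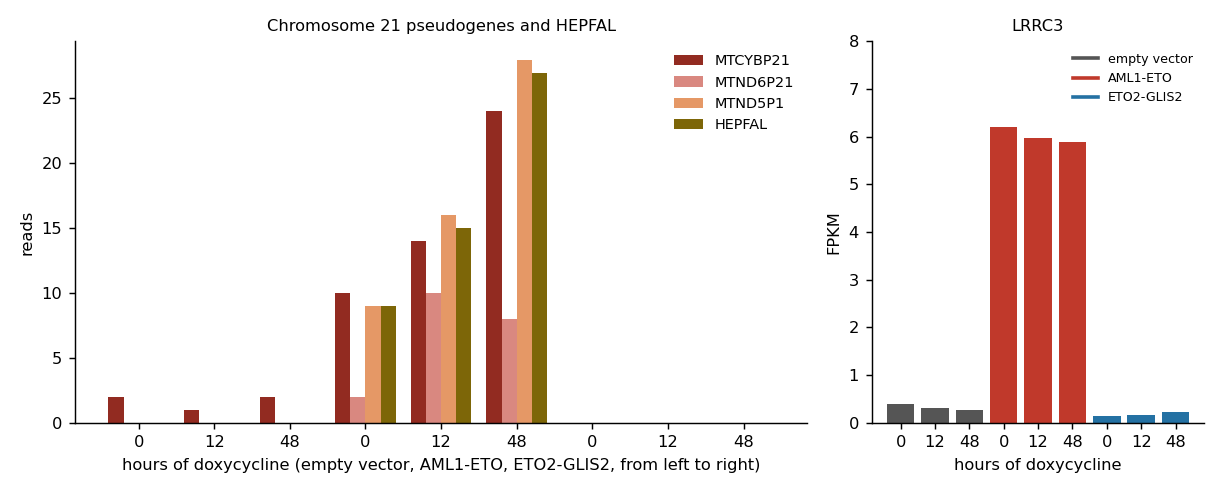
Left, reads (bars, y axis from 0) of the 3 pseudogenes on chromosome 21 and of HEPFAL in the 9 libraries, by hours of doxycycline in the empty vector, AML1-ETO and ETO2-GLIS2 lines. HEPFAL overlaps MTND6P21 and MTND5P1, and its reads are not separate from those of the block. Right, FPKM of LRRC3 in the same libraries. The AML1-ETO libraries hold nearly all reads of the block, and LRRC3 lies between 5.89 and 6.21 FPKM in them and at 0.400 FPKM or below elsewhere.

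Summed over all 29 members, the reads were 0.552% to 1.19% of the parents' reads, with the lowest value in U937-CTR at 0 h and the highest in U937-AE at 12 h. The log2 change of the summed FPKM at 48 h was -2.12 in U937-AE, -1.08 in U937-EG and -0.09 in U937-CTR, and that of the summed parents -2.30, -1.36 and -0.66. The sum of members minus the sum of parents gave 0.18 (0.08 to 0.27), 0.28 (0.21 to 0.35) and 0.57 (0.52 to 0.63). Both sums weigh the parent genes differently, so this does not compare each copy with its own parent. In reads, MTND2P28 minus MT-ND2 was -0.30, -0.18 and -0.21 in the same lines. The copies of MT-ATP6 minus MT-ATP6 gave -0.04, 0.02 and -0.07, and those of MT-CO1 minus MT-CO1 0.23, -0.23 and 0.54. MTND2P28 carries much of the member sums, and without it the differences of the sums were 0.50, 0.40 and 0.81.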

How the data were processed

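RNA of 9 libraries was prepared with a TruSeq kit that does not mark strand. The authors mapped the reads to hg38 with HISAT2 (2.0.5), used SAMtools (1.7) and HTSeq (0.9.1, default settings) to obtain gene counts, and deposited FPKM per gene. DESeq2 (1.22.2) is named in the submitters' processing notes without a role. By default HTSeq leaves out reads with several alignments. The annotation version is not given in the sources used here. Members, lists and comparisons were chosen with earlier results of these data known. In Python (3.11.15; scipy 1.17.1, pandas 2.3.3, numpy 2.4.6), reads were recovered as FPKM times GENCODE exon length times library total. Changes are log2(FPKM + 0.01) of a library against 0 h of the same line, called past 2-fold with a mean FPKM of the libraries compared of at least 1. Intervals are 95% intervals, by Wilson for shares of reads and by the exact Clopper-Pearson method for read ratios, and intervals and floors cover counting error only. Recovery, calling and alignment were tested on simulated data. Transcripts were aligned locally with biopython 1.88 (match 2, mismatch -3, gap opening -5, extension -2), and coordinates come from RefSeq on GRCh38.p14, in which all 29 members were found. Named are the 15 members of highest mean FPKM, up to 3 per parent, and those at the threshold; neighbours on chromosome 21 were added after their values were seen. Figures were drawn with matplotlib 3.10.9. Alternatives covered time, scaling, filter, pseudocount, sums and parent assignment. One stretch of sequence and the level of 1 marker gene are not reported here.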

Additional observations from a re-analysis of the deposited data

Results flagged for a closer look

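MTND2P28 moved in opposite directions at 12 h: its log2 change was 0.19 (0.12 to 0.25) in U937-AE, -0.32 (-0.40 to -0.25) in U937-CTR and -0.41 (-0.49 to -0.33) in U937-EG. MTATP6P1 did so at 12 h as well, with 0.11 (0.00256 to 0.212) in U937-AE and -0.54 (-0.65 to -0.43) in U937-CTR. At 48 h MTATP6P1 changed by 0.13 (0.04 to 0.23) in U937-CTR, by -2.08 (-2.26 to -1.90) in U937-AE and by -0.94 (-1.04 to -0.84) in U937-EG. These values are in reads per library total, and the differences between the lines were not tested, since each line has 1 library per time.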

How the results depend on the processing

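No paired analysis was possible because each condition has 1 library, and for the same reason no library could be left out of a condition. At 12 h, 1 member was past 2-fold lower in each line, in place of 0 in U937-CTR, 3 in U937-AE and 2 in U937-EG. With no filter on low values, 4, 5 and 5 members were lower and 11, 12 and 9 higher in U937-CTR, U937-AE and U937-EG, in place of 0 higher, and 14.3%, 17.8% and 11.9% of genes were lower and 22.6%, 31.7% and 27.5% higher. Scaled to the library total without mitochondrial genes, 1 member (MTCYBP21) was higher in U937-AE. After median-ratio rescaling, 3 members were lower in U937-EG at 48 h, in place of 2. With a mean FPKM of at least 5 required, 2 were lower in U937-AE at 48 h, in place of 3. The summed members changed by -0.42, 0.15 and -0.22 at 12 h in U937-CTR, U937-AE and U937-EG, which turns the direction in U937-AE, as it did for MTND2P28 (0.19) and MTATP6P1 (0.11). At 48 h they changed by -0.24, -2.29 and -1.25 after median-ratio rescaling, which shifted values by -0.15, -0.17 and -0.17, and by 0.10, -1.81 and -0.98 without MTND2P28. With the empty vector change subtracted, U937-EG gave -1.0. Members minus parents were 0.22 in U937-CTR and 0.76 in U937-AE at 12 h, 0.81, 0.50 and 0.40 without MTND2P28, and 0.66 in U937-CTR from summed reads. The causes were not tested. In MTATP6P1, the change in U937-CTR at 48 h was 0.13 as deposited and -0.02 after median-ratio rescaling. Parent assignment by alignment left all shares as they were.

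Each condition has 1 library, so no spread between cultures is known. Reads below about 10 per library give intervals of several fold, so single members under 1 FPKM support only sums over blocks or groups.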

Other observations

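Of 13 MTRNR2L genes, which resemble the large mitochondrial ribosomal RNA, 6 were at 0 in every library and the highest value was 2.28 FPKM, in MTRNR2L2 of U937-CTR at 12 h. Of the 22 transfer RNA genes of the mitochondrial genome, 15 were at 0 in every library, and MT-TP ranged from 795 to 2391 FPKM. Of the names by parent, 24 copies of MT-ND4L and 2 copies of MT-ATP8 were in the files, and none met the condition of 3 libraries.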
